A study of Mus musculus with 15 samples.

Results

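The genes described are Atf4 and 9 genes that act with it or are known as its targets, Ddit3, Trib3, Asns, Chac1, Psat1, Phgdh, Shmt2, Mthfd2 and Slc7a11. They were chosen as a group of integrated stress response and amino acid synthesis genes, with earlier results of these data known, and were matched by symbol. They are 10 of the 46603 Ensembl genes counted in each sample, all 10 were found, and all 10 were among the 15997 genes that passed the filter on low counts. Their lowest count in any sample was 265, for Chac1 in replicate 3 of MEFD5min, so none of the 10 came near the floor of 3 counts in any condition.

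Gene expression was measured by RNA-Seq in mouse embryonic fibroblasts (MEFs), primary connective tissue cells, to follow their conversion towards adipocytes. The MEFs were wild-type, of the BALB/c strain, from embryos aged 10.5 days, and all were grown in DMEM with 10% FBS. MEFD0 was collected at day 0 before any treatment. MEFD3min and MEFD5min were kept in growth medium without the adipogenic agents until day 3 and day 5. MEFD3plu and MEFD5plu received 10 µM rosiglitazone, 1 µM dexamethasone, 10 µg/mL insulin and 3-isobutyl-1-methylxanthine at 0.5 mM for 3 days. MEFD3plu was collected then, and MEFD5plu after the agents had been replaced by growth medium until day 5. Each of the 5 conditions had 3 samples, numbered 1, 3 and 4, and values given for a condition follow that order. The labels do not say whether the numbers stand for separate cultures or embryos. The study's methods give results as averages over 3 or more independent experiments, without tying this to the sample numbers. The p-values therefore measure only the spread between these samples, which may be technical. Total counts per sample ran from 27144003 to 35852844 in MEFD0, 31826222 to 36039085 in MEFD3min, 29015042 to 37281126 in MEFD3plu, 24030558 to 35970314 in MEFD5min and 33606850 to 35606948 in MEFD5plu.

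As background, the integrated stress response begins when a kinase phosphorylates the translation factor eIF2alpha, which slows protein synthesis in general but lets the mRNA of ATF4 be translated. ATF4 is a bZIP transcription factor that pairs with C/EBP family proteins, binds C/EBP-ATF response elements and raises genes for amino acid synthesis, amino acid import, tRNA charging and the feedback control of the response itself. In fibroblasts the pathway is known to answer amino acid shortage, endoplasmic reticulum stress and mitochondrial stress, and growth signals that reach mTORC1 are also known to raise ATF4. Because ATF4 is controlled to a large part at translation, the amount of its mRNA is not a measure of its protein.

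The label MEF was checked against marker genes. The summed level of 9 fibroblast markers was 10500, 12000 and 10800 CPM (counts scaled by library size and the trimmed mean of M-values) in MEFD0, 24900, 36200 and 27400 in MEFD3min, 12100, 13400 and 12900 in MEFD3plu, 16300, 14400 and 14900 in MEFD5min and 13700, 12200 and 13300 in MEFD5plu. Vim was the most abundant of them in MEFD0 and MEFD5min, and Col3a1 in MEFD3min and MEFD3plu. The summed level of 7 adipocyte markers was at most 65.2 CPM in any untreated sample, was 7880, 7440 and 9170 in MEFD3plu and was 9670, 11400 and 11100 in MEFD5plu, with Lpl or Fabp4 the most abundant. Markers of other cell types were low. Leukocyte markers summed to at most 6.73 CPM, with Adgre1 at 0 throughout, endothelial markers to at most 2.23, epithelial to at most 1.19, skeletal muscle to at most 2.11, with Myod1 and Myf5 at 0, erythroid to at most 0.161, and neural, with Map2 the most abundant, to at most 42.1, with Sox10 at 0. The adipocyte markers thus moved with treatment, as 7 of 7 were called higher at both days, while 8 of 9 fibroblast markers were called lower at day 3 and 3 lower and 2 higher at day 5. The share of counts from mitochondrial genes also moved with treatment, at 3.29%, 2.44% and 4.12% in MEFD3min and 5.36%, 5.26% and 6.64% in MEFD3plu, and at 2.39%, 2.19% and 2.61% in MEFD5min and 4.96%, 5.86% and 5.19% in MEFD5plu, with no overlap on either day. The part of the markers and of this share in the changes of the 10 genes was not tested. In these bulk samples, fewer cells of a type and less RNA per cell cannot be told apart.

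All 10 genes were then compared between conditions. Adjusted p-values are from edgeR's quasi-likelihood (QL) test with Benjamini-Hochberg (BH) adjustment over the 15997 genes, a gene is called at an adjusted p under 0.05, and every fold change is a log2 value with its standard error (SE). Comparisons that use the same condition share its 3 samples, so they are not independent of each other. With 3 samples against 3, an exact two-sided permutation test of a single gene could not go below p = 0.1, so single genes were tested only in the fit of all genes. A range over the alternatives is that of the adjusted p over 22 other settings, 1 of which is DESeq2's own test.

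**Figure D1:**
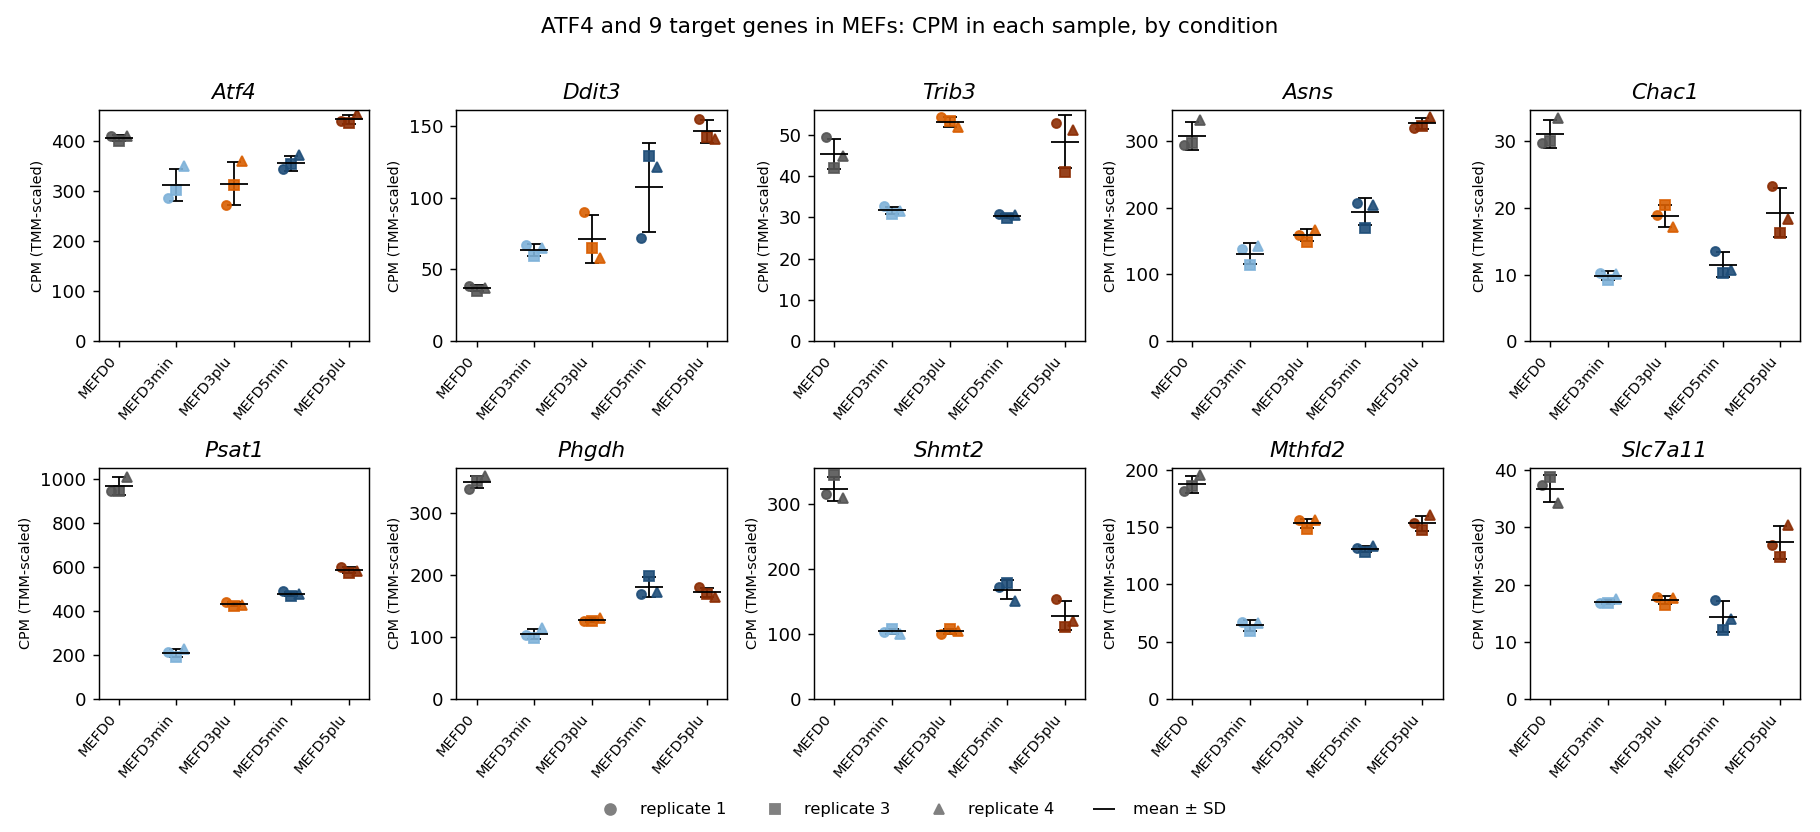
CPM of the 10 genes (y axes, from 0) in each of the 15 samples, by condition (x axes). Points are samples, shaped by replicate number, and black marks are the mean ± SD of 3 samples. Psat1 runs from 943 to 1010 CPM in MEFD0 and from 188 to 226 in MEFD3min, and Ddit3 is the 1 gene with its lowest values in MEFD0.

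At day 3, 6 of the 10 genes were called higher in treated cells and 0 lower, where 28.0% of all genes tested were called higher and 28.0% lower. The 6 were Trib3, Asns, Chac1, Psat1, Phgdh and Mthfd2, and the count of lower genes was also 0 at an unadjusted p under 0.05 and with DESeq2. At day 5, 8 were called higher and 1 lower, against 26.3% and 24.2% of all genes, with Atf4, Ddit3, Slc7a11, Trib3, Asns, Chac1, Psat1 and Mthfd2 higher and Shmt2 lower. The median log2 fold change of the 10 genes was 0.27 at day 3 and 0.38 at day 5, beside -0.00 and 0.01 over all genes tested. The count at day 5 depended on scaling. Scaling by total counts alone moved the median of all genes at day 5 by -0.16. It left 4 genes of this group higher and 2 lower, with a median of 0.22 over the 10. The share of higher genes among all calls at day 5 went from 52.1% to 37.0%.

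The regulators come first. Atf4, which encodes the transcription factor itself, had 409, 400 and 410 CPM in MEFD0, 287, 302 and 349 in MEFD3min, 272, 313 and 359 in MEFD3plu, 343, 353 and 371 in MEFD5min and 439, 436 and 453 in MEFD5plu. The treated and untreated samples overlapped at day 3, with replicate 4 the highest in both, and at day 5 all 3 treated samples lay above all 3 untreated ones. The log2 fold change was 0.01 at day 3 (SE 0.0954, edgeR QL BH-adjusted p = 0.93) and 0.32 at day 5 (SE 0.0954, edgeR QL BH-adjusted p = 0.0107). With total counts alone the day 5 value was 0.15 and did not pass (edgeR QL BH-adjusted p = 0.12, range over the alternatives 0.00216 to 0.12). Ddit3, which encodes CHOP, a bZIP factor induced by ATF4 and known for its role in stress-induced cell death, had 38.7, 34.9 and 37.2 CPM in MEFD0, 67.0, 59.2 and 64.6 in MEFD3min, 90.2, 64.9 and 58.1 in MEFD3plu, 72.0, 129 and 121 in MEFD5min and 155, 142 and 141 in MEFD5plu. MEFD0 held its 3 lowest values and MEFD5plu its 3 highest, treated and untreated samples overlapped at day 3, and replicate 1 of MEFD5min stood well below the other samples of that condition. The treated to untreated difference was 0.16 at day 3 (SE 0.174, edgeR QL BH-adjusted p = 0.458) and 0.45 at day 5 (SE 0.172, edgeR QL BH-adjusted p = 0.0397). The day 5 call of Ddit3 was near the threshold and passed in 15 of 22 alternative settings, and not with total counts alone, at 0.28, nor with DESeq2 or its size factors, at 0.40 each. Without replicate 1 of MEFD5min the difference was 0.23 (edgeR QL BH-adjusted p = 0.203), and it was 0.40, 0.47 and 0.47 without replicates 1, 3 and 4 of MEFD5plu, none of which passed (adjusted p = 0.108, 0.0687 and 0.0659, range over the alternatives 9.84e-05 to 0.212). Other gene models on the opposite strand, including Mars, overlap 4.73% of the exon bases of Ddit3, and a further gene model on its own strand overlaps 6.13%. Trib3, a pseudokinase that binds ATF4 and dampens its activity, had 49.4, 42.1 and 44.9 CPM in MEFD0, 32.7, 30.9 and 31.6 in MEFD3min, 54.3, 53.3 and 51.9 in MEFD3plu, 30.8, 29.9 and 30.5 in MEFD5min and 52.9, 41.0 and 51.2 in MEFD5plu. The treated samples lay above the untreated ones on both days without overlap. Trib3 rose by 0.74 at day 3 (SE 0.0920, edgeR QL BH-adjusted p = 2.43e-06) and by 0.67 at day 5 (SE 0.0921, edgeR QL BH-adjusted p = 1.41e-05), and both calls held in all 22 alternative settings.

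Asns, asparagine synthetase, makes asparagine from aspartate and is widely used as a readout of ATF4 activity. It had 293, 297 and 331 CPM in MEFD0, 138, 114 and 142 in MEFD3min, 159, 149 and 167 in MEFD3plu, 207, 170 and 204 in MEFD5min and 319, 322 and 335 in MEFD5plu. On each day the 3 treated samples lay above the 3 untreated ones, narrowly at day 3 and widely at day 5, where they reached the level of MEFD0. The difference was 0.27 at day 3 (SE 0.0968, edgeR QL BH-adjusted p = 0.0242) and 0.75 at day 5 (SE 0.0968, edgeR QL BH-adjusted p = 7.09e-06). The day 3 call was lost without replicate 3 of MEFD3min, at 0.18 (edgeR QL BH-adjusted p = 0.112), without replicate 1 or 4 of MEFD3plu, at 0.27 and 0.23 (0.0567 and 0.0842), and in a fit of the compared samples alone, at 0.26 (0.0833, range over the alternatives 0.00515 to 0.112). The day 5 call held in all 22 alternative settings.

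Serine is made from a glycolytic intermediate by the successive enzymes Phgdh, Psat1 and Psph. Psat1, phosphoserine aminotransferase, had 943, 943 and 1010 CPM in MEFD0, 212, 188 and 226 in MEFD3min, 441, 423 and 428 in MEFD3plu, 488, 469 and 476 in MEFD5min and 599, 572 and 581 in MEFD5plu. No pair of conditions overlapped, MEFD3min was lowest, and the gap between treated and untreated samples was about as wide as the untreated level at day 3 and much smaller at day 5. Psat1 rose by 1.04 at day 3, a fold of 2.06 (SE 0.0785, edgeR QL BH-adjusted p = 4.99e-09), and by 0.29 at day 5, a fold of 1.22 (SE 0.0775, edgeR QL BH-adjusted p = 0.00502). With total counts alone the day 5 value was 0.13 and did not pass (edgeR QL BH-adjusted p = 0.159, range over the alternatives 0.00147 to 0.159). Phgdh, phosphoglycerate dehydrogenase, which opens the pathway, had 339, 351 and 359 CPM in MEFD0, 103, 98.3 and 114 in MEFD3min, 125, 125 and 131 in MEFD3plu, 169, 198 and 172 in MEFD5min and 180, 170 and 165 in MEFD5plu. The treated samples lay above the untreated ones at day 3, and the 2 sets overlapped at day 5. Phgdh rose by 0.27 at day 3 (SE 0.0799, edgeR QL BH-adjusted p = 0.00857), and its day 5 value of -0.07 was not called (SE 0.0794, edgeR QL BH-adjusted p = 0.523). Total counts alone gave -0.23 at day 5, which passed (edgeR QL BH-adjusted p = 0.0209, range over the alternatives 0.0209 to 0.943). The counts of Phgdh are uncertain in that 47.8% of its 50-base stretches also occur in pseudogenes. Of these, Gm7901 held 9 to 70 counts per sample, 0.273% to 0.980% of the count of Phgdh, and how the counting treated reads that match several places is not given in the sources used here.

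Shmt2 and Mthfd2 are mitochondrial enzymes of folate-bound one-carbon metabolism, which draws its carbon units from serine. Mthfd2, a dehydrogenase and cyclohydrolase of methylene-tetrahydrofolate, had 181, 186 and 195 CPM in MEFD0, 67.1, 59.0 and 65.9 in MEFD3min, 156, 148 and 156 in MEFD3plu, 132, 128 and 133 in MEFD5min and 153, 147 and 160 in MEFD5plu. All 3 samples of MEFD3min lay far below every other sample, and treated and untreated samples did not overlap on either day. It had the highest day 3 fold change of the 10 genes, 1.26 or a fold of 2.39 (SE 0.0719, edgeR QL BH-adjusted p = 1.39e-10), and rose by 0.23 at day 5 (SE 0.0705, edgeR QL BH-adjusted p = 0.0132). The day 5 call was lost without replicate 4 of MEFD5min or of MEFD5plu, at 0.19 each (edgeR QL BH-adjusted p = 0.0787 and 0.0676), with total counts alone, at 0.06 (0.47), and without the filter, at 0.23 (0.0868, range over the alternatives 0.00658 to 0.47). Shmt2, which splits serine into glycine and a carbon unit, had 316, 344 and 310 CPM in MEFD0, 103, 108 and 99.7 in MEFD3min, 99.7, 108 and 104 in MEFD3plu, 172, 179 and 151 in MEFD5min and 153, 111 and 120 in MEFD5plu. Treated and untreated samples covered nearly the same range at day 3, and at day 5 the treated samples were lower, with replicate 1 of MEFD5plu above replicate 4 of MEFD5min. The day 3 value was 0.01 (SE 0.103, edgeR QL BH-adjusted p = 0.969), and at day 5 Shmt2 fell by 0.39 (SE 0.103, edgeR QL BH-adjusted p = 0.00473), in all 22 alternative settings. It was the 1 gene of this group called lower with treatment.

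The last pair of genes concern glutathione and cystine. Chac1, an enzyme that breaks down glutathione, had 29.7, 30 and 33.5 CPM in MEFD0, 10.3, 9.12 and 10.1 in MEFD3min, 19.0, 20.4 and 17.1 in MEFD3plu, 13.6, 10.3 and 10.7 in MEFD5min and 23.3, 16.2 and 18.4 in MEFD5plu. Treated samples were higher than untreated ones on both days without overlap, and none reached MEFD0. Chac1 rose by 0.93 at day 3 (SE 0.137, edgeR QL BH-adjusted p = 1.72e-05) and by 0.74 at day 5 (SE 0.135, edgeR QL BH-adjusted p = 2.33e-04), in all 22 alternative settings. Slc7a11, the light chain of the exchanger that imports cystine for glutamate, had 37.4, 38.8 and 34.3 CPM in MEFD0, 16.7, 16.8 and 17.4 in MEFD3min, 17.8, 16.5 and 17.7 in MEFD3plu, 17.3, 12 and 13.9 in MEFD5min and 27.0, 24.8 and 30.5 in MEFD5plu. The day 3 samples lay within a narrow range whether treated or not, and at day 5 every treated sample lay above every untreated one. The day 3 difference was 0.03 (SE 0.116, edgeR QL BH-adjusted p = 0.838), and at day 5 Slc7a11 rose by 0.92 (SE 0.116, edgeR QL BH-adjusted p = 4.97e-06), the highest day 5 fold change of the 10 genes.

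**Figure D2:**
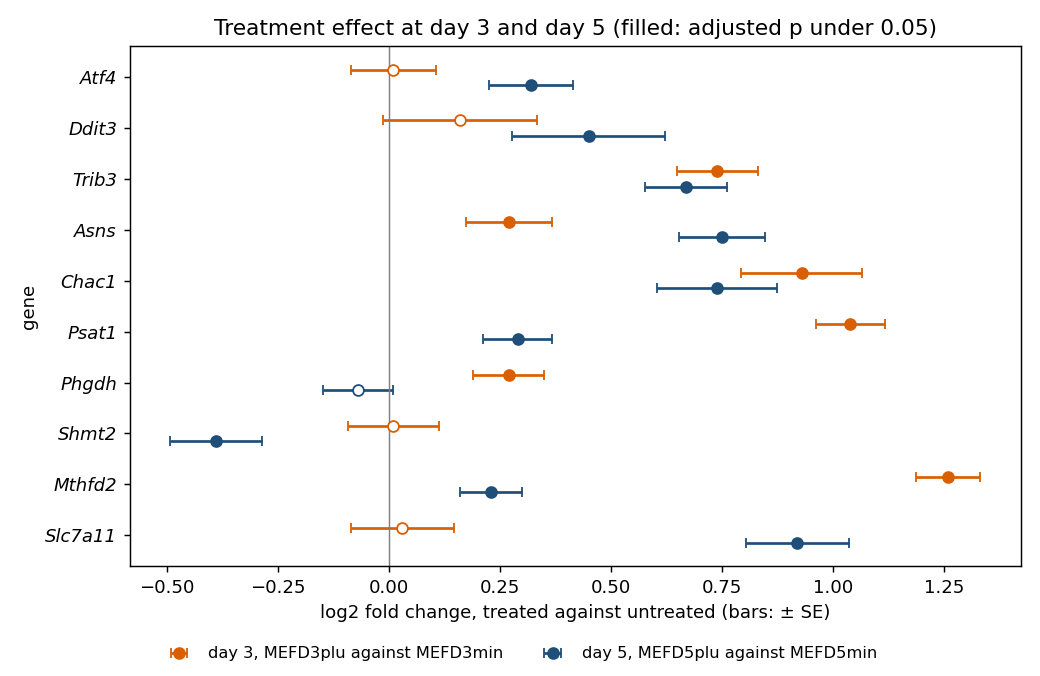
Log2 fold change of treated against untreated cells (x axis) for each of the 10 genes (y axis) at day 3 and day 5, with bars for ± SE from the fit of 15 samples and filled points for an adjusted p under 0.05. Mthfd2 (1.26) and Psat1 (1.04) lie farthest to the right at day 3 and Slc7a11 (0.92) at day 5, and Shmt2 (-0.39) is the 1 filled point below 0.

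The genes of this group therefore did not move as 1 block between days, and the difference was tested as the interaction of treatment with day, the day 3 effect minus the day 5 effect. Since the agents were present until day 3 and absent after it, day and their removal cannot be told apart in this test. It was called above 0 for 4 of the 10 genes and below 0 for 2, against 22.6% and 25.8% of all genes tested. Cell type markers differed between days as well, with 8 of 9 fibroblast and 4 of 7 adipocyte markers below 0. Above 0 were Mthfd2 at 1.03 (SE 0.10, edgeR QL BH-adjusted p = 3.50e-07), Psat1 at 0.75 (SE 0.110, adjusted p = 2.90e-05), Shmt2 at 0.39 (SE 0.146, adjusted p = 0.0341) and Phgdh at 0.33 (SE 0.113, adjusted p = 0.0213). These 4 are the serine and one-carbon enzymes among the 10 genes, and they were not tested as a set. Of the 22 further such enzymes tested, described below, 10 were called above 0 and 3 below. Other lists described below also had more genes above 0 than below. These were 10 and 8 of 19 bZIP partners and further targets, and 8 and 5 of 16 other amino acid synthesis enzymes. Transporters had 6 and 2 of 16 and tRNA synthetases 7 and 2 of 17. Glutathione and NRF2 target genes had 8 and 2 of 14, and genes of integrated stress response control 4 and 1 of 13. The ATF6 and XBP1 arms had 3 above and 10 below of 19. Of the 10 genes, those below 0 were Slc7a11 at -0.89 (SE 0.164, edgeR QL BH-adjusted p = 2.58e-04) and Asns at -0.48 (SE 0.137, adjusted p = 0.00817). The interactions of Mthfd2, Psat1 and Slc7a11 passed in all 22 alternative settings. That of Shmt2 passed in 14, and was lost without any 1 of replicate 1 or 4 of MEFD3min, replicate 3 or 4 of MEFD3plu, replicate 1 or 3 of MEFD5min and replicate 3 or 4 of MEFD5plu, at 0.30 to 0.40 (edgeR QL BH-adjusted p = 0.0504 to 0.103, range over the alternatives 0.00181 to 0.103). That of Phgdh was lost without replicate 3 of MEFD5min, at 0.26 (edgeR QL BH-adjusted p = 0.063), without replicate 4 of MEFD5plu, at 0.31 (0.0577), and without the filter, at 0.32 (0.0937, range over the alternatives 9.48e-04 to 0.0937), and total counts alone moved it to 0.52. That of Asns was -0.30 with total counts alone and did not pass (edgeR QL BH-adjusted p = 0.0588, range over the alternatives 8.25e-04 to 0.0588), a setting that moved the median of all genes by 0.18 and the share of calls above 0 from 46.7% to 59.5%. A difference between days was not shown for Trib3 (0.08, SE 0.130, edgeR QL BH-adjusted p = 0.658), Chac1 (0.19, SE 0.192, adjusted p = 0.435) or Ddit3 (-0.29, SE 0.245, adjusted p = 0.354). For Atf4 the interaction was -0.31 (SE 0.135, edgeR QL BH-adjusted p = 0.0719). It passed with the replicate number as a block, at -0.31 (adjusted p = 0.0294), and without replicate 1 of MEFD3min or replicate 4 of MEFD3plu, at -0.36 and -0.41 (adjusted p = 0.0492 and 0.0152, range over the alternatives 0.0152 to 0.394).

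The same genes also changed with time in untreated cells. From MEFD0 to MEFD3min, 9 of the 10 fell and 1, Ddit3, rose, against 28.6% of all genes called lower and 31.4% higher, with a median log2 fold change of -1.39 beside 0.04 over all genes. In the same step 7 of 9 fibroblast markers were called higher and 2 lower, and the 2 neural markers tested were lower, Map2 from a mean of 32.7 to 5.87 CPM and Tubb3 from 7.90 to 2.51 CPM (n = 3 each). The condition pairs did not overlap for any of the 10. Psat1 fell by 2.21 on the log2 scale, so that MEFD0 held 4.63 times the level of MEFD3min (SE 0.0810, edgeR QL BH-adjusted p = 7.62e-13). Phgdh, Chac1, Shmt2, Mthfd2, Asns and Slc7a11 followed, at -1.73, -1.66, -1.64, -1.55, -1.23 and -1.12, and Trib3 and Atf4 were the least lowered, at -0.52 and -0.38 (edgeR QL BH-adjusted p = 1.11e-04 and 0.00243). Ddit3 rose by 0.79 (SE 0.176, edgeR QL BH-adjusted p = 9.85e-04). Each of these 10 calls held in all 22 alternative settings, including total counts alone, which moved the median of all genes by -0.12.

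From MEFD3min to MEFD5min, 6 genes rose and 0 fell, against 21.3% and 21.5% of all genes, with a median of 0.63 beside -0.03. Of the markers tested in this step, 2 of 9 fibroblast markers were higher and 6 lower, 5 of 7 adipocyte markers were lower, and 1 of 2 neural markers was higher. The 6 were Psat1 at 1.19, Mthfd2 at 1.03, Phgdh at 0.77, Ddit3 at 0.75, Shmt2 at 0.70 and Asns at 0.56, each called in all 22 alternative settings (edgeR QL BH-adjusted p of 0.00213 or less). Atf4 at 0.19, Chac1 at 0.23, Trib3 at -0.06 and Slc7a11 at -0.23 were not called. Atf4 passed without replicate 4 of MEFD3min, at 0.27 (edgeR QL BH-adjusted p = 0.0262), and with total counts alone, at 0.29 (0.00716, range over the alternatives 0.00716 to 0.373), which moved the share of higher genes among all calls from 49.7% to 62.7%. Slc7a11 passed without replicate 1 of MEFD5min, at -0.38 (edgeR QL BH-adjusted p = 0.013, range over the alternatives 0.013 to 0.458). From MEFD3plu to MEFD5plu, a step that includes the removal of the agents, 7 genes rose and 0 fell, against 33.8% and 29.2% of all genes, with a median of 0.44 beside 0.06. In this step 5 of 9 fibroblast markers were higher and 2 lower, 3 of 7 adipocyte markers were higher and 2 lower, and both neural markers tested were higher. Ddit3 and Asns rose most, at 1.04 each (SE 0.174 and 0.0974, edgeR QL BH-adjusted p = 6.63e-05 and 1.06e-07), followed by Slc7a11 at 0.66, Atf4 at 0.49, Psat1 at 0.44, Phgdh at 0.44 and Shmt2 at 0.30. The call of Shmt2 was lost without replicate 1 of MEFD3plu, at 0.27 (edgeR QL BH-adjusted p = 0.0671), without replicate 1 of MEFD5plu, at 0.15 (0.159), and with total counts alone, at 0.22 (0.0959, range over the alternatives 0.00485 to 0.159). Mthfd2, Chac1 and Trib3 had values of 0.00, 0.04 and -0.14 and were not called (edgeR QL BH-adjusted p = 0.998, 0.816 and 0.2). A difference between days in the treated level was thus not shown for these 3 genes, while the others were called higher at day 5.

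The 5 conditions were ordered by mean CPM for each gene, and of the 40 neighbouring pairs in these orders 23 passed and 17 did not, in edgeR QL tests of all 10 pairs of conditions (BH adjustment within a pair). In the pairs of conditions not compared so far, 63.5% of all genes were called in either direction for MEFD3plu against MEFD0, 46.4% for MEFD5min against MEFD0, 62.7% for MEFD5min against MEFD3plu, 65.0% for MEFD5plu against MEFD0 and 56.7% for MEFD5plu against MEFD3min. For Psat1, MEFD0 was above MEFD5plu, MEFD5min, MEFD3plu and MEFD3min in that order, and MEFD5min and MEFD3plu, whose samples did not overlap, did not pass the test (0.15, edgeR QL BH-adjusted p = 0.102). For Phgdh and Shmt2 the order was MEFD0, MEFD5min, MEFD5plu, MEFD3plu and MEFD3min. Neighbours that did not pass were MEFD5min and MEFD5plu for Phgdh (0.07, adjusted p = 0.523) and MEFD3plu and MEFD3min for Shmt2 (0.01, adjusted p = 0.969, both edgeR QL with BH adjustment). For Mthfd2 the order was MEFD0, MEFD5plu, MEFD3plu, MEFD5min and MEFD3min, with MEFD5plu and MEFD3plu not passing. Chac1 had the same order as Mthfd2, with MEFD5min and MEFD3min as a further pair that did not pass (0.23, edgeR QL BH-adjusted p = 0.198). Slc7a11 ran from MEFD0 over MEFD5plu to MEFD3plu, MEFD3min and MEFD5min, and the last 3 conditions did not pass as neighbours. For Asns, MEFD5plu and MEFD0 came first and did not pass (0.09, edgeR QL BH-adjusted p = 0.451), followed by MEFD5min, MEFD3plu and MEFD3min, each of which passed. Trib3 ran from MEFD3plu over MEFD5plu and MEFD0 to MEFD3min and MEFD5min, where the 1 neighbouring pair that passed was MEFD0 and MEFD3min. Ddit3 ran from MEFD5plu over MEFD5min, MEFD3plu and MEFD3min to MEFD0, and MEFD3plu and MEFD3min did not pass (0.16, edgeR QL BH-adjusted p = 0.458). For Atf4, in the order MEFD5plu, MEFD0, MEFD5min, MEFD3plu and MEFD3min, none of the 4 neighbouring pairs passed.

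Between genes, levels were compared as CPM per kilobase of exon. In MEFD0 the mean level per kilobase was 227 for Psat1, 172 for Atf4, 141 for Phgdh, 112 for Asns, 104 for Shmt2, 53.7 for Mthfd2, 21.6 for Ddit3, 21.4 for Trib3, 19.0 for Chac1 and 2.64 for Slc7a11. In MEFD3min Atf4 had the highest level per kilobase, 132, with Psat1 at 49.1 and Asns at 48.0. Atf4 also led in MEFD5plu, at 188 CPM per kilobase, before Psat1 at 137, Asns at 119 and Ddit3 at 85.2. Slc7a11 was the lowest of the 10 in all 5 conditions, between 1.04 and 2.64 CPM per kilobase. This rank depends on the annotated exon length, 13922 bases for Slc7a11 and 1637 for Chac1. In CPM, Chac1 had the lower mean in every condition but MEFD3plu, for example 9.86 beside 16.9 in MEFD3min. In MEFD3plu the means were 18.8 for Chac1 and 17.3 for Slc7a11.

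As a description of shape, the mean log2 CPM of each condition was centred on its mean over the 5 conditions. The median of the 10 centred profiles was highest in MEFD0, at 0.67, and lowest in MEFD3min, at -0.60, with MEFD3plu at -0.18, MEFD5min at -0.01 and MEFD5plu at 0.26 between them. The root mean square difference from this median was lowest for Asns, at 0.211, and highest for Ddit3, at 0.864, whose profile rose from -1.04 in MEFD0 to 0.95 in MEFD5plu. The nearest pair of genes within the group was Phgdh and Shmt2, at a root mean square difference of 0.15. Psat1 was nearest to Phgdh (0.286), Mthfd2 to Psat1 (0.290), Chac1 and Slc7a11 to each other (0.297), Asns to Slc7a11 (0.309), and Atf4, Ddit3 and Trib3 to Asns, Atf4 and Atf4 (0.324, 0.651 and 0.326). Among 9313 other genes whose log2 CPM averaged 3 or more, the median difference from the median profile was 0.541, and the 5 genes most like it over the 5 conditions were 0610010F05Rik (0.0915), Dtymk (0.0993), Mcph1 (0.106), Cacybp (0.106) and Prpf31 (0.109).

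Genes of integrated stress response control were looked at next. They are the eIF2alpha kinases, Ppp1r15a and Ppp1r15b, and the Eif2s and Eif2b genes, which encode parts of eIF2 and eIF2B. The counts of this and the further lists are read against all genes tested, of which 28.0% were higher and 28.0% lower at day 3 and 26.3% and 24.2% at day 5. Some genes count in more than 1 list. Cth and Aldh1l2 are among both the bZIP partners and further targets and the one-carbon enzymes. Pycr1, Aldh18a1 and Gpt2 are among both those targets and the other amino acid synthesis enzymes. With total counts alone, 3072 of all 15997 genes were higher and 5231 lower at day 5, with a median of -0.15. With DESeq2 size factors these values were 3836, 4242 and -0.03. Of the 13 genes of integrated stress response control, all tested, 6 were called higher and 2 lower at day 3, and 3 higher and 4 lower at day 5. The medians were 0.16 and 0.01, the latter -0.15 with total counts alone and -0.03 with DESeq2 size factors. The day 5 counts were near the shares of all genes, and were 1 higher and 5 lower with total counts alone and 2 and 5 with DESeq2 size factors. Eif2ak2, which encodes the double-stranded RNA sensor PKR, had the widest swing. Its mean was 239 CPM in MEFD3min and 27.7 in MEFD3plu, and 152 in MEFD5min and 373 in MEFD5plu (n = 3 each), so it fell by 3.11 at day 3 (SE 0.136, edgeR QL BH-adjusted p = 4.66e-12) and rose by 1.29 at day 5 (SE 0.126, adjusted p = 2.82e-07), with an interaction of -4.41 (SE 0.184, adjusted p = 2.55e-11) and no overlap of treated and untreated samples on either day. Eif2ak1, the haem-regulated kinase, rose by 0.45 at day 3 (SE 0.0744, edgeR QL BH-adjusted p = 6.46e-05) and by 0.22 at day 5, where the call was lost without replicate 4 of MEFD5min, at 0.15 (edgeR QL BH-adjusted p = 0.165), with total counts alone, at 0.06 (0.579), with DESeq2 size factors, at 0.18, and without the filter, at 0.22 (0.133, range over the alternatives 0.00911 to 0.579). Eif2ak4, which encodes the amino acid sensor GCN2, fell by 0.35 and 0.53 at day 3 and day 5 (edgeR QL BH-adjusted p = 0.00464 and 1.80e-04). Eif2ak3, which encodes the endoplasmic reticulum kinase PERK, had -0.28 at day 3, not called (edgeR QL BH-adjusted p = 0.0585), and fell by 0.43 at day 5 (0.00839). The day 3 value of Eif2ak3 passed in 4 of 22 alternative settings, among them without replicate 4 of MEFD3min, at -0.37 (edgeR QL BH-adjusted p = 0.0152, range over the alternatives 0.0152 to 0.316). Ppp1r15a and Ppp1r15b, which direct phosphatase 1 to eIF2alpha and so end the response, rose by 0.99 and 0.93 at day 3 (edgeR QL BH-adjusted p = 3.60e-05 and 1.57e-07), and their day 5 values of -0.07 and -0.21 were not called (0.726 and 0.0605). The day 5 value of Ppp1r15b passed in 9 of 22 alternative settings, among them without replicate 4 of MEFD5min, at -0.32 (range of the edgeR QL or DESeq2 BH-adjusted p over the alternatives 0.00591 to 0.217). Their interactions of 1.06 and 1.14 passed (edgeR QL BH-adjusted p = 7.31e-04 and 1.88e-06). Antisense genes cover 11.6% of the exon bases of Eif2ak1, 8.05% of Eif2ak3 and 11.4% of Ppp1r15b, and the strand setting of the counting is not given in the sources used here.

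Of 19 bZIP partners of ATF4 and further target genes, 11 were higher and 6 lower at day 3, and 13 higher and 1 lower at day 5, with medians of 0.81 and 0.54. The highest at day 3 were Cebpb, a dimer partner of ATF4, at 2.59, Ddit4, an inhibitor of mTORC1, at 2.44, and Cth, which makes cysteine, at 1.88, and the lowest were Pycr1 at -0.95, Aldh1l2 at -0.70 and Nupr1 at -0.51. At day 5 the highest were the secreted factor Fgf21 at 3.74, Nupr1 at 1.42 and Cth at 1.12, and the 1 gene called lower was Stc2 at -1.40. Nupr1, a small stress-induced nuclear protein, thus moved in opposite directions, from a mean of 97.1 to 68.0 CPM at day 3 and from 79.2 to 212 CPM at day 5, with an interaction of -1.93 (SE 0.227, edgeR QL BH-adjusted p = 2.83e-06). At day 3 its samples overlapped, from 79.9 to 110 CPM in MEFD3min and from 59.5 to 82.5 in MEFD3plu. Its day 3 call was lost without replicate 1 or 3 of MEFD3plu, at -0.42 and -0.45 (range of the edgeR QL or DESeq2 BH-adjusted p over the alternatives 2.33e-06 to 0.0604). Stc2 did the reverse, at 0.81 and -1.40, and Atf5, a bZIP factor close to ATF4, had -0.31 and 1.11. Antisense genes cover 20.7% of the exon bases of Cebpb and 14.1% of Aldh1l2.

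In the list of further serine, glycine and one-carbon enzymes, 22 of 23 were tested, since Cbs had at most 5 counts in any sample. At day 3, 12 were higher and 4 lower, and at day 5, 9 higher and 9 lower, with medians of 0.49 and 0.01. Total counts alone gave a median of -0.16 at day 5 and DESeq2 size factors -0.04. Psph, which completes serine synthesis after Phgdh and Psat1, rose on both days, by 0.88 and 0.79 (edgeR QL BH-adjusted p = 3.32e-06 and 1.54e-05), and no difference between days was shown (0.09, adjusted p = 0.655). The cytosolic counterparts of Shmt2 and Mthfd2 changed direction between days, as Shmt1 rose by 0.87 at day 3 and fell by 0.78 at day 5, and Mthfd1 rose by 0.92 and fell by 0.86. Their interactions were 1.65 and 1.78 (edgeR QL BH-adjusted p = 9.58e-07 and 7.56e-09). Mthfd1l, the mitochondrial partner of Mthfd2, had 0.07 at day 3, not called, and fell by 0.46 at day 5 (edgeR QL BH-adjusted p = 9.39e-04). Mthfd2l, the close relative of Mthfd2, had -0.24 at day 3 (edgeR QL BH-adjusted p = 0.0401), a call lost in 12 of 22 alternative settings, among them without replicate 4 of MEFD3min, at -0.15 (0.198, range over the alternatives 0.00343 to 0.198), and -0.04 at day 5, not called. Sfxn1, the mitochondrial serine carrier, rose by 1.79 and 0.90, and Ahcy, which shares 68.7% of its 50-base stretches with pseudogenes, fell by 0.86 and 1.01.

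Other amino acid synthesis enzymes split in both directions. Of 16, 8 were higher and 6 lower at day 3, and 6 higher and 8 lower at day 5, with medians of 0.18 and -0.23. With total counts alone 3 were higher and 9 lower at day 5 (median -0.39, beside -0.15 over all genes in that setting). Bcat2, the mitochondrial aminotransferase of branched-chain amino acids, rose by 3.25 and 2.86, from a mean of 18 to 172 CPM at day 3 and from 15.4 to 112 CPM at day 5, while its cytosolic relative Bcat1 fell by 1.66 and 0.56. Glul, glutamine synthetase, rose by 2.85 and 1.06, Gpt by 0.95 and 2.63, and Ass1 fell by 1.28 and 1.40. Antisense genes cover 15.9% of the exon bases of Bcat2, and 12.6% and 38.6% of the 50-base stretches of Glul and Ass1 occur in other genes. Of 16 amino acid transporters, 8 were higher and 5 lower at day 3 and 5 higher and 4 lower at day 5, with medians of 0.26 and -0.02. The day 5 counts were near the share of all genes (26.3% higher and 24.2% lower), and were 4 and 7 with total counts alone (median -0.18) and 4 and 6 with DESeq2 size factors (median -0.06). Slc1a5, a glutamine transporter, rose most in both comparisons, by 3.97 and 2.39, from a mean of 10.7 to 167 CPM at day 3 and from 10.6 to 55.8 CPM at day 5. It was followed by Slc43a2 and Slc43a1, at 3.16 and 2.85 at day 3, and Slc38a1 fell by 0.99 and 1.30. The levels of Slc43a2 and Slc43a1 were low, with means of 1.68 and 0.802 CPM in MEFD3min and 15.1 and 5.68 in MEFD3plu. The day 3 value of Slc43a1 ran from 2.42 to 3.39 over the alternative settings.

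Of 17 cytosolic aminoacyl-tRNA synthetases, 9 were higher and 0 lower at day 3 (edgeR QL, also 0 lower at an unadjusted p under 0.05), and 3 higher and 5 lower at day 5, with medians of 0.26 and -0.01. With total counts alone 2 were higher and 9 lower at day 5 (median -0.18, near the -0.15 over all genes in that setting). Wars, Aars and Farsb led at day 3, at 1.04, 0.58 and 0.54, and the day 5 values of Wars and Aars, -0.13 and -0.11, were not called. The list of 14 glutathione and NRF2 target genes, which Chac1 and Slc7a11 border on, had 9 higher and 2 lower at day 3 and 5 higher and 5 lower at day 5, with medians of 0.42 and 0.04, the latter -0.12 with total counts alone and -0.01 with DESeq2 size factors. Gclc, which opens glutathione synthesis, rose by 2.66 at day 3 and fell by 0.59 at day 5, with an interaction of 3.25 (SE 0.175, edgeR QL BH-adjusted p = 2.52e-10). The relative of Chac1, Chac2, had 0.39 at day 3 (edgeR QL BH-adjusted p = 0.049), a call lost in 15 of 22 alternative settings, namely DESeq2, its size factors and the compared samples alone, at 0.38 each, and without any 1 of 12 samples, for example at 0.26 without replicate 3 of MEFD3min (0.19, range over the alternatives 9.68e-04 to 0.19), and 0.47 at day 5 (0.0177), lost without replicate 1 or 3 of MEFD5min or replicate 4 of MEFD5plu, at 0.44, 0.38 and 0.40, and with total counts alone, at 0.30 (0.0788, range over the alternatives 0.0026 to 0.0788). The ATF6 and XBP1 arms of the unfolded protein response, which run beside the ATF4 arm, had 4 of 19 higher and 5 lower at day 3 and 5 higher and 3 lower at day 5, with medians of -0.08 and 0.13, the latter -0.03 with total counts alone. The day 3 counts and the higher count at day 5 were near the shares of all genes, and total counts alone gave 3 higher and 3 lower at day 5. Hspa5, the chaperone BiP, had -0.08 at day 3, not called, and rose by 0.47 at day 5 (edgeR QL BH-adjusted p = 0.00103), and Pdia4, a disulphide isomerase, fell by 0.93 at day 3 and was not called at day 5, at 0.13. Of the genes called in this list, Dnajb9 was the highest on both days, at 0.77 and 1.13, and Ern1 the lowest at day 5, at -0.65.

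**Figure D3:**
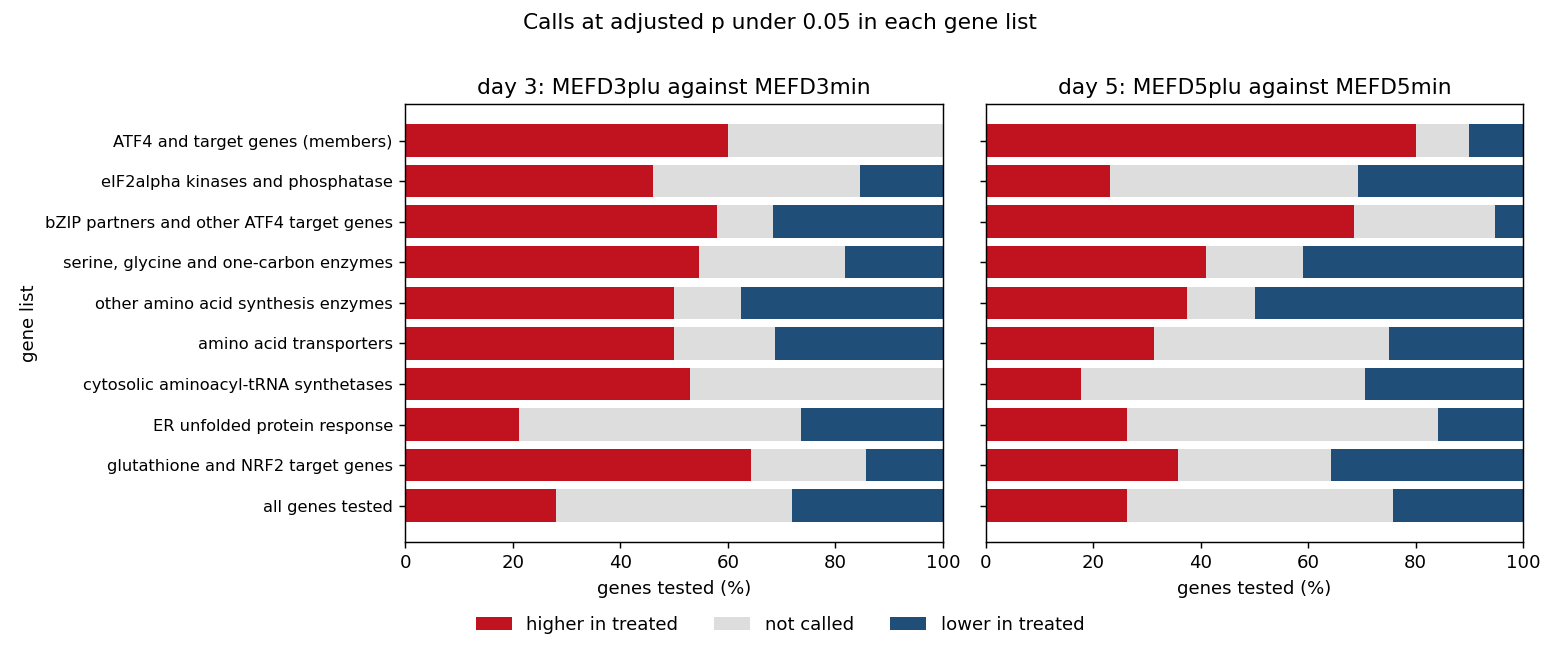
Share of the tested genes of each list (y axis) that were called higher, lower or not called in treated against untreated cells (x axis, percent of genes tested) at day 3 and day 5. The 10 genes of the group have 6 higher and 0 lower at day 3 and 8 higher and 1 lower at day 5, beside 28.0% and 26.3% of all genes called higher.

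The genome positions of the 10 genes (GRCm38, GENCODE M21) place them on 6 chromosomes. Atf4 lies at chr15:80255184-80257541, Ddit3 at chr10:127290774-127296288 and Chac1 at chr2:119351229-119354381, all on the plus strand. On the minus strand are Trib3 at chr2:152337422-152344032, Asns at chr6:7675169-7693254, Mthfd2 at chr6:83305691-83325908, Shmt2 at chr10:127517123-127522444, Psat1 at chr19:15904678-15947337, Phgdh at chr3:98313170-98339990 and Slc7a11 at chr3:49892526-50443614. All 10 are annotated as protein-coding.

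Because ATF4 acts through C/EBP-ATF response elements, the promoters of the 10 genes were searched for its letters. All 10 matched the RefSeq promoter sequences (GRCm38.p6), which run from 250 bases before to 50 bases after each start, with 2 windows for Psat1. The motif TGATGNAAN, on either strand, was in the windows of 4 of the 10 genes, Trib3, Asns, Chac1 and Slc7a11, and in 3.95% of all 32851 windows. In Trib3 it lay after the RefSeq start, and in the other 3 before it. Its core TTGCATCA, which reads TGATGCAA on the other strand and overlaps the first motif, was in the windows of Chac1 and Slc7a11 and in 0.895% of all windows. The variant TGGTGCAAT, looked for after the sequences had been seen, was in those of Trib3 and Psat1 and in 0.0883% of all windows. A match describes the letters only and is not evidence of a bound site, and for Atf4, Ddit3, Phgdh, Shmt2 and Mthfd2 these letters are not in the window searched. The window searched cannot show whether a gene has these letters elsewhere, and any part of them in the changes was not tested. Atf4, Ddit3, Phgdh and Mthfd2, without a match in the window, were also called higher on at least 1 day. The stretches around the matches before the starts are printed to show the letters found. They run 5′ to 3′ on the strand of the gene, with the matching letters in capitals. Starts here are those of the RefSeq windows. They match the GENCODE spans given above for Atf4 and Shmt2, lie far inside them for Psat1 and Mthfd2, and lie close to their ends for the other 6 genes, so that the match in Asns is within its GENCODE span and the TGATGNAAN match in Trib3, after the RefSeq start, lies before the GENCODE one. In Asns (chr6:7693210-7693262, minus strand) the match lies 15 to 23 bases before the start, in Chac1 (chr2:119351018-119351086, plus strand) 186 to 194, in Trib3 (chr2:152344061-152344123, minus strand) 25 to 33 and in Psat1 (chr19:15925157-15925225, minus strand) 128 to 136. Slc7a11 (chr3:50443623-50443709, minus strand) holds a pair of matches that face each other, 58 to 66 and 40 to 48 bases before the start.
Asns: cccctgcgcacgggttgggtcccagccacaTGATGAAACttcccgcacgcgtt
Chac1: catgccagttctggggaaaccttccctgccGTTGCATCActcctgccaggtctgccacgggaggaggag
Slc7a11: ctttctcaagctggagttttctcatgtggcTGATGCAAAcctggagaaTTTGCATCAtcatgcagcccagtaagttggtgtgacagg
Trib3: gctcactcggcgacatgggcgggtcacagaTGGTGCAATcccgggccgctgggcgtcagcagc
Psat1: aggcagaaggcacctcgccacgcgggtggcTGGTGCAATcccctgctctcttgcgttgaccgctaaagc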

How the data were processed

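The counts per gene deposited by the authors were used as given, and no reads were aligned again. The submitters' processing notes name TopHat2 2.1.0, HTSeq and DESeq2, and the annotation release and strand setting are not given in the sources used here. The sample labels name the TruSeq RNA Library Prep Kit v2 and the study's methods a stranded TruSeq mRNA kit, so the strand of the reads is unclear. Of 46603 identifiers in each file, 46091 were matched to GENCODE M21 and 512 were not.

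All 15 samples were fitted together by condition in R 4.3.3 with edgeR 4.0.16 (limma 3.58.1), with TMM scaling, filterByExpr, the QL test and BH adjustment within each comparison. The 22 alternatives each made 1 choice differently, apart from DESeq2, which changed the test, scaling and filter together. Where a choice bore on the filter, the genes tested changed with it. The alternatives were DESeq2 1.42.0 (its own test, scaling and filter), the compared samples alone, DESeq2 size factors in edgeR, total counts alone, no filter, at least 10 counts in every sample, a block for the replicate number, and leaving out each of the 15 samples. The genes named were the 10 genes, 12 relatives and regulators of theirs, and in each list up to 3 genes per side with the highest change among those called whose log2 CPM averaged 1 or more, some of which are not reported here. Values of listed genes in a comparison where the rule did not name them were chosen after their values were seen. The 10 genes and the lists were chosen with earlier results of these data known. The promoter variant TGGTGCAAT was added after the sequences had been seen.

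Within conditions, replicates varied beyond counting error (chi-square over its degrees of freedom 5.74 to 114). Replicate numbers 1, 3 and 4 come from the labels, and nothing says what samples with the same number share. As a check of pairing, the residuals of same-number samples correlated at over 0.1 in every pair only between MEFD3plu and MEFD3min (0.143 to 0.360, mean 0.244).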

Additional observations from a re-analysis of the deposited data

Results flagged for a closer look

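These 47 genes were named for this comparison by the rule given above. Their treatment effect differed between day 3 and day 5 by the test of the interaction (edgeR QL, adjusted p under 0.05). They are not all the listed genes that passed, as Eif2b2 at 0.80 and Cth at 0.76 also did. Over all genes tested, 22.6% were called above 0 and 25.8% below. The value is the log2 effect at day 3 minus that at day 5, and no cause of any difference was tested. The agents had been removed after day 3. Of the 10 genes described, those above 0 were Mthfd2 1.03, Psat1 0.75, Shmt2 0.39 and Phgdh 0.33, and those below 0 were Slc7a11 -0.89 and Asns -0.48. Of these, Asns was -0.30 and no longer called with total counts alone, Phgdh was 0.32 and no longer called without the filter, and 0.26 and 0.31 without replicate 3 of MEFD5min or replicate 4 of MEFD5plu, and Shmt2, at 0.30 to 0.40, without any 1 of replicates 1 and 4 of MEFD3min, 3 and 4 of MEFD3plu, 1 and 3 of MEFD5min and 3 and 4 of MEFD5plu.

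Among genes of integrated stress response control, the values were Ppp1r15b 1.14, Ppp1r15a 1.06, Eif2b5 0.84 and Eif2ak2 -4.41. Among bZIP partners and further ATF4 targets they were Ddit4 2.25, Stc2 2.21, Cebpb 1.64, Fgf21 -2.74, Nupr1 -1.93, Atf5 -1.42, Pycr1 -1.19 and Aldh1l2 -1.16. Aldh1l2, at -1.16, is also in the list of serine and one-carbon enzymes, whose other values were Mthfd1 1.78, Shmt1 1.65, Mtr 1.37 and Mthfd1l 0.53. Pycr1, at -1.19, is also in that of other amino acid synthesis enzymes, with Glul 1.79, Glud1 1.14, Gpt -1.68 and Bcat1 -1.11. Transporters had Slc1a5 1.58, Slc43a2 1.56, Slc7a6 1.22, Slc7a3 -1.44 and Slc38a4 -0.63, and tRNA synthetases Wars 1.18, Farsa 0.89, Mars 0.74, Tars -0.58 and Sars -0.28. In the ATF6 and XBP1 arms, 3 of 19 genes were called above 0 and 10 below, with a median of -0.36 beside -0.03 over all genes. Those named were Ern1 0.93, Hyou1 0.73, Atf6 0.28, Pdia4 -1.06, Pdia3 -0.97 and Pdia6 -0.90. Glutathione and NRF2 target genes had Gclc 3.25, Txnrd1 1.5, Hmox1 1.42, Nqo1 -1.02 and Srxn1 -0.42. Of these genes, Atf6 and Sars lost the call with some samples left out. Atf6 was 0.26 without replicate 1 of MEFD5min and 0.24 without replicate 3 of MEFD5plu, and its call was also lost without the filter, at 0.27. Sars was -0.22 to -0.30 without any 1 of the samples other than replicate 3 of MEFD3min and replicate 4 of MEFD3plu, and its call was lost in 18 of 22 alternative settings. The others were total counts alone at -0.10, DESeq2 and its size factors at -0.25 each, the compared samples alone at -0.24 and no filter at -0.30.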

How the results depend on the processing

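Of 60 results of the 10 genes over 6 comparisons, 40 kept their call and direction under all 22 alternatives, and 20 had another call or direction under at least 1, of which 13 had another call. Of 145 results of other named genes, 126 kept both and 19 did not, with those of Fgf21 and Slc43a2 available in 21 settings only. Where a call or direction changed, the cause was not tested, except that total counts alone shifted the median of all genes by -0.16 at day 5, 0.18 for the interaction, -0.12 from MEFD0 to MEFD3min and 0.10 from MEFD3min to MEFD5min.

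With total counts alone, 4 of the 10 genes were higher and 2 lower at day 5, and 1 was below 0 in the interaction. Directions changed only for values that were not called. At day 3 Shmt2 was -0.00 with DESeq2 and with its size factors, and -0.01 without the filter and with the compared samples alone, and Atf4 was -0.01 without the filter. With total counts alone the Chac2 interaction was 0.11, Trib3 from MEFD3min to MEFD5min 0.04, and Chac1 and Mthfd2 from MEFD3plu to MEFD5plu -0.04 and -0.08. In that last comparison Chac1 was -0.00 with DESeq2 size factors, and Mthfd2 was -0.04 with DESeq2, with its size factors and with the compared samples alone, and -0.02 without the filter.

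Leaving out each of the 15 samples in turn gave these lowest and highest values. At day 3 they were -0.09 and 0.11 for Atf4, -0.05 and 0.29 for Ddit3, -0.02 and 0.04 for Shmt2 and -0.00 and 0.13 for Mthfd1l. At day 5 they were -0.14 and 0.01 for Phgdh and -0.20 and 0.02 for Ppp1r15a. For the interaction they were -0.03 and 0.15 for Trib3, -0.03 and 0.25 for Psph and -0.20 and 0.17 for Chac2, and 2 to 4 of the 10 genes were above 0, with 2 without replicate 3 of MEFD5min or replicate 4 of MEFD5plu. From MEFD3min to MEFD5min, 0 to 1 of the 10 were lower, with 1 without replicate 1 of MEFD5min. From MEFD3plu to MEFD5plu they were -0.12 and 0.15 for Chac1 and -0.04 and 0.03 for Mthfd2.

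With the replicate number as a block, a pairing the labels do not explain, the counts of the 10 genes called higher and lower were the same in 5 of 6 comparisons, and 3 instead of 2 were below 0 in the interaction, with Atf4 added. Mthfd2 from MEFD3plu to MEFD5plu was then -0.00. Of 40 neighbouring pairs in the orders of conditions 23 passed with the block, as without it. These alternatives for the orders were chosen after seeing the data.

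With at least 265 counts in each sample, depth did not limit the detection of the 10 genes. Cbs, at 5 counts or fewer, could not be tested.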
